A study of Saccharomyces cerevisiae with 24 samples.

Results

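The response of budding yeast (Saccharomyces cerevisiae) to a mild dose of hydrogen peroxide was compared between a strain without YAP1 and a strain without MGA2. The members are the 4 arrays of each strain given 0.1 mM H2O2, 8 of the 24 arrays of the series, and all open reading frames (ORFs) with a value on these 8 arrays, 5554 of the 6251 in the table. Both strains are haploid single-gene deletions in the BY4741 background, and per the labels both received 0.1 mM H2O2 for 45 min and no high dose. The study's methods describe this protocol as the acute one at a lower dose, which implies a longer exposure, and the labels were followed. On each two-colour Agilent array RNA of treated cells was hybridized against RNA of untreated cells, with the treated RNA in Cy5 on 2 arrays and in Cy3 on the other 2 arrays of a strain. The 4 arrays per strain are biological replicates in the words of the design text. For the deletion strains the sources do not state which strain gave the untreated RNA, and the study's text speaks of the yap1 mutant against wild type cells while the labels give treated against untreated cells. The labels were followed here too, so a value above 0 means that a transcript was more abundant in treated than in untreated RNA. All values are log2 ratios of treated to untreated RNA unless a channel is named. A difference is the mean of the 4 yap1 arrays minus the mean of the 4 mga2 arrays. Each strain is a single deletion without a wild type array in the fit, so a difference does not show which strain departs from wild type.

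Yap1 is a basic leucine zipper transcription factor that collects in the nucleus when peroxide oxidizes its cysteines, a step that needs the peroxidase Hyr1. It then drives genes of thioredoxin, glutathione and peroxiredoxin metabolism. Mga2 is made as a precursor anchored in the endoplasmic reticulum membrane, is released by proteasome-dependent processing when membrane lipids become too saturated or oxygen is short, and together with Spt23 drives the fatty acid desaturase gene OLE1. Peroxide that is not removed damages proteins, DNA and iron-sulfur clusters, and yeast answers such damage with chaperones, the proteasome, ribonucleotide reductase and the Msn2 and Msn4 stress programme.

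Neither deleted gene had values on all 4 arrays of its own strain. YAP1 had a full set of values on the mga2 arrays alone, at -0.14, -0.11, -0.13 and -0.28. MGA2 had a full set on the yap1 arrays alone, at -0.57, -0.19, 0.66 and 0.64. The table holds values on all 4 yap1 arrays for 5620 ORFs and on all 4 mga2 arrays for 5651. Median intensities were alike within a strain, 1049 to 1074 on the mga2 arrays and 1196 to 1224 on the yap1 arrays. The dye had a larger part in the mga2 arrays than the treatment did. Pairs of mga2 arrays with the same dye orientation correlated at r = 0.71 to 0.72 over ORFs, and pairs with opposite orientation at -0.66 to -0.53. The corresponding values of the yap1 arrays were 0.92 to 0.93 and 0.26 to 0.44. Arrays of different strains with the same orientation correlated at 0.43 to 0.64. The standard deviation over ORFs was 0.363 for the yap1 means, 0.095 for the mga2 means and 0.455 for the dye term. The fit behind the values given here therefore held a dye term per ORF. Because each strain has 2 arrays of each orientation, this term lowers the residual spread and does not move the strain means. The ratios of the 4 arrays of a strain had the same quantiles in the deposited table (largest difference 0.0013), which gives identical values to top-ranked genes. HSP12 and RNR3, for example, held the highest yap1 value of 3.91 on 2 arrays each. For top-ranked and bottom-ranked genes the spread is therefore understated, and the scale of each strain is that of its own distribution.

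Far more transcripts responded in the yap1 deletion strain. Against 0, 1303 ORFs rose (23.5% of those tested) and 1717 fell (30.9%) in the yap1 deletion strain, compared with 20 that rose (0.36%) and 5 that fell (0.09%) in the mga2 deletion strain. The difference between the strains itself was called for 1884 ORFs (33.9%) at a Benjamini-Hochberg adjusted p under 0.05 in limma, 905 of them higher (16.3%) and 979 lower (17.6%) in the yap1 deletion strain. Of the 1884, 1824 were also called in the yap1 response and 19 in the mga2 response. The shares of 16.3% and 17.6% are the background for the list counts given below. The difference was above 1 for 83 called ORFs and under -1 for 15, and the median over all ORFs was -0.04. On 493 ORFs (8.88%) all 4 yap1 arrays lay above all 4 mga2 arrays, and on 395 (7.11%) below. With the ratios of the 8 arrays brought to a common distribution the counts were 465 higher and 281 lower, and without the dye term 286 and 121.

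**Figure D1:**
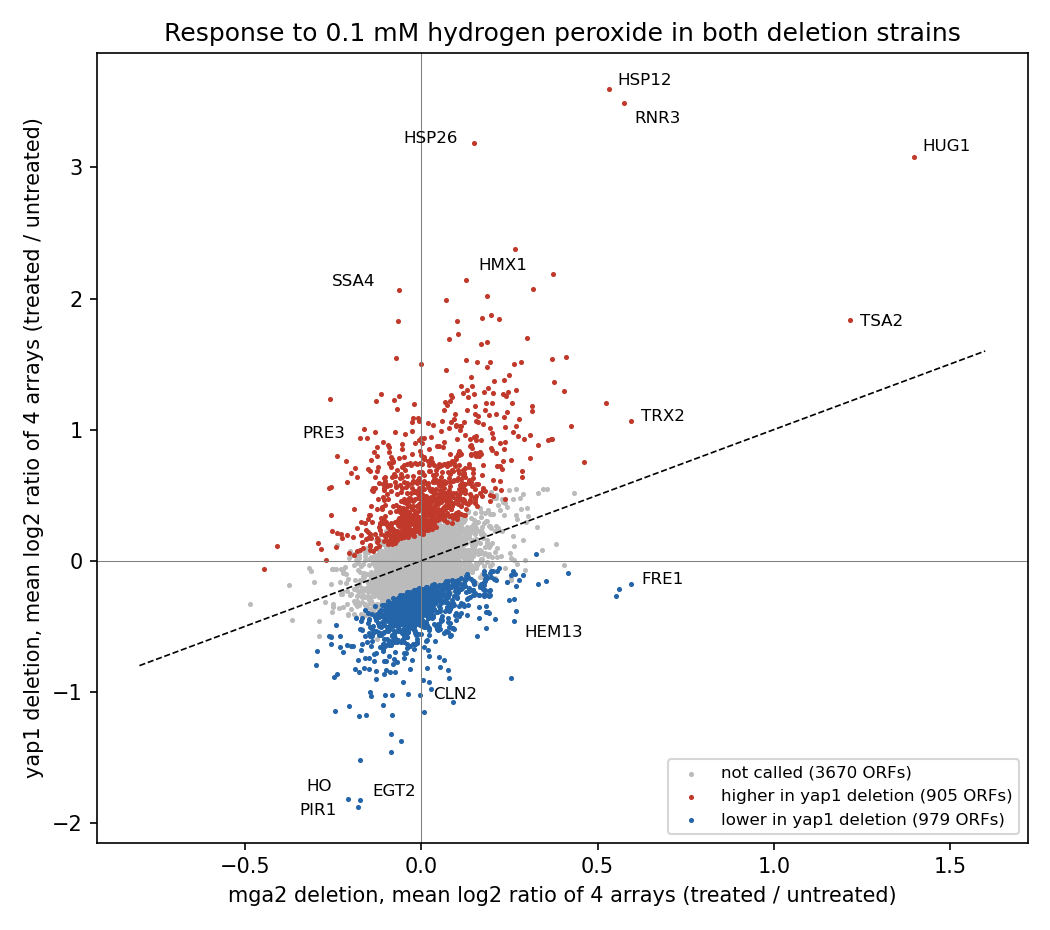
Mean log2 ratio of 4 arrays in the mga2 deletion strain (horizontal axis) against the yap1 deletion strain (vertical axis) for each of 5554 ORFs. The dashed line marks equal responses. Called ORFs spread along the vertical axis, and HUG1 and TSA2 are the ORFs with mga2 means above 1.

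The 25 ORFs called in the mga2 deletion strain included HUG1, an inhibitor of ribonucleotide reductase induced by replication stress, and TSA2, an inducible cytosolic peroxiredoxin. HUG1 stood at 0.61, 2.06, 1.46 and 1.46 on the mga2 arrays (mean 1.40, adjusted p = 0.00286). TSA2 stood at 0.81, 1.46, 1.36 and 1.24 (mean 1.22, adjusted p = 1.49e-05). All 4 arrays were above 0 for both genes, in either dye orientation. TRX2, a cytosolic thioredoxin, rose as well, at 0.69, 0.16, 1.02 and 0.51 (adjusted p = 0.0107). Among the 5 ORFs that fell were MET6, methionine synthase, and ALD6, cytosolic acetaldehyde dehydrogenase and a source of NADPH (mga2 mean -0.30). MET6 was chosen after its values were seen. SRX1, sulfiredoxin, which reduces overoxidized peroxiredoxins, was likewise chosen after its values were seen. It had a full set of values on the mga2 arrays alone, at 0.85, 0.04, 1.72 and 2.06, so it was not tested.

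Of all ORFs called without overlap, HSP12 and HSP26, of the general stress and chaperone lists, gave the widest differences. HSP12, a small membrane-protecting protein of the Msn2 and Msn4 programme, stood at 3.08, 3.50, 3.91 and 3.91 on the yap1 arrays and at 0.91, 0.94, 0.37 and -0.10 on the mga2 arrays. The ratio was 8.39-fold higher in the yap1 deletion strain (difference 3.07, SE 0.115, adjusted p = 4.32e-09). All yap1 arrays lay above all mga2 arrays, and the mga2 response on its own was called as well, at a mean of 0.53. HSP26, a small heat shock protein that holds unfolded proteins, stood at 2.87, 2.87, 3.50 and 3.50 against 0.55, 0.21, -0.23 and 0.07. Its difference of 3.03 (SE 0.097, adjusted p = 1.19e-09) again left no overlap between the strains, and 1 of the mga2 arrays was below 0.

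Of 25 chaperone genes tested, 22 were called higher in the yap1 deletion strain and 0 lower, with a median difference of 0.71 against -0.04 over all ORFs. SSA4, an inducible Hsp70, stood at 1.74, 1.96, 2.41 and 2.17 on the yap1 arrays and between -0.29 and 0.20 on the mga2 arrays (difference 2.13, adjusted p = 5.59e-09). HSP42, a small heat shock protein that gathers aggregates, differed by 1.73. HSP104, the disaggregase, differed by 1.39 and HSP82, an Hsp90, by 1.22. HSP104 varied with the dye, at 0.51 and 1.02 with treated RNA in Cy5 and 1.82 and 1.76 in Cy3 on the yap1 arrays, and at -0.66 and -0.47 in Cy5 and 0.34 and 0.34 in Cy3 on the mga2 arrays. Within either orientation its yap1 values were the higher ones. Of 29 general stress genes, 24 were called higher and 1 lower (18 and 1 with a common distribution of the ratios), with a median difference of 1.03. Besides HSP12 and HSP26 these included TMA10, a ribosome-associated protein of stressed cells (2.12), ALD3, an aldehyde dehydrogenase (1.84), TFS1, an inhibitor of carboxypeptidase Y (1.68), and MSC1, a gene with a part in meiotic recombination (1.68). BTN2, a sorting factor for misfolded proteins, which is on neither list, differed by 1.89. The 1 gene of that list called lower was GSY1, a glycogen synthase, at a difference of -0.65. CTT1, cytosolic catalase, differed by 0.29 with overlapping arrays (adjusted p = 0.0924).

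**Figure D2:**
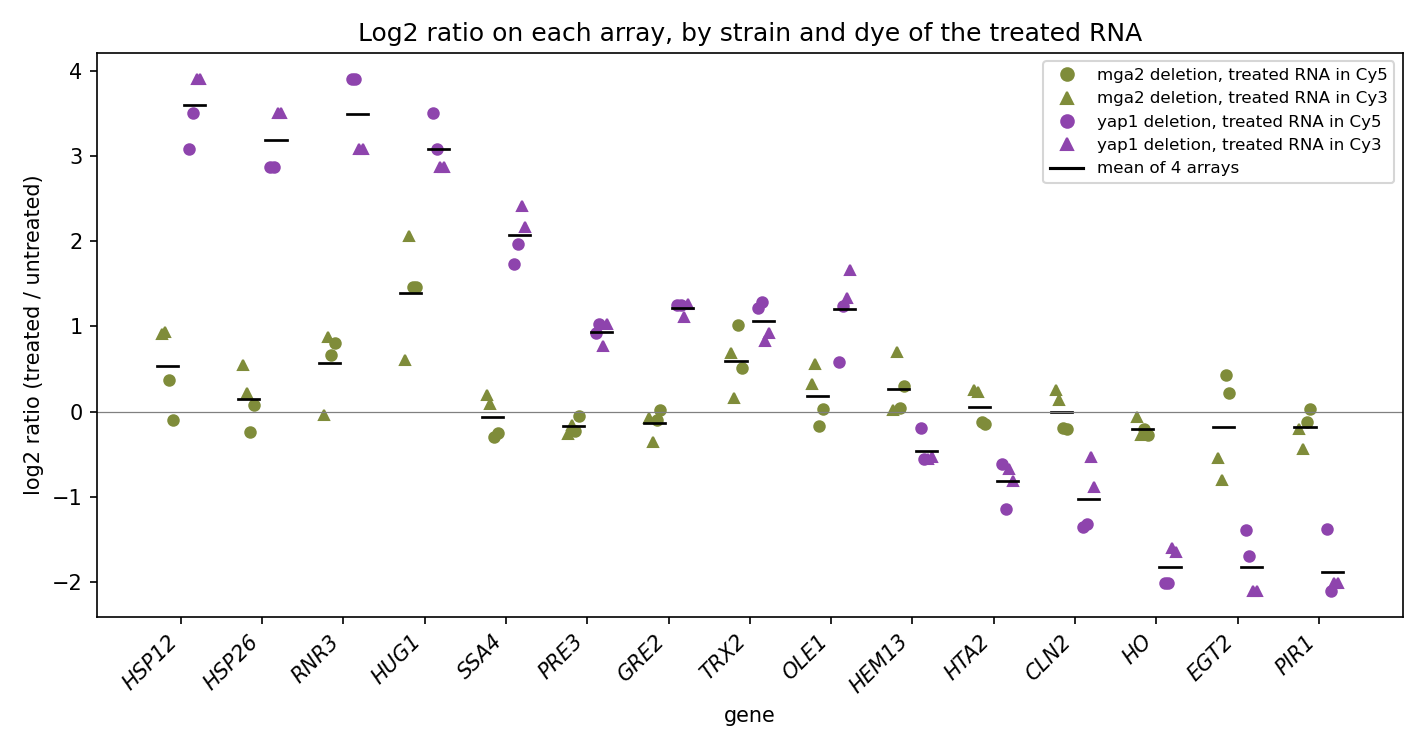
Log2 ratio of treated to untreated RNA (vertical axis) on each of the 8 arrays for 15 genes (horizontal axis). Circles are arrays with treated RNA in Cy5, triangles those with treated RNA in Cy3, and bars the mean of 4 arrays. The yap1 values of HSP12 run from 3.08 to 3.91 and those of PIR1 from -2.11 to -1.38, and the strains overlap for TRX2.

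All 33 tested genes of the proteasome list, the subunits of the protease that degrades ubiquitin-tagged proteins and their activator RPN4, were called higher in the yap1 deletion strain, where 16.3% of all ORFs were. Their differences ran from 0.39 to 1.11 with a median of 0.72, a narrow range beside that of the chaperones, which ran from 0.00 to 3.03. PRE3, a catalytic subunit of the core particle, stood at 0.93, 1.03, 0.78 and 1.03 on the yap1 arrays and at -0.26, -0.15, -0.23 and -0.05 on the mga2 arrays. Its difference was 1.11 (SE 0.084, adjusted p = 1.07e-06), with all yap1 arrays above 0 and all mga2 arrays below. PRE1 (0.96), PUP2 (0.90) and PRE6 (0.86) of the core particle, and RPT2 (0.91) and RPT6 (0.85), ATPases of the regulatory particle, followed. RPN4, the transcription factor of proteasome genes, differed by 0.56 with overlapping arrays. In the mga2 deletion strain 0 of the 33 were called in either direction. UBI4, the polyubiquitin gene, stood at 1.85, 2.17, 1.90 and 2.04 against -0.04, 0.20, 0.06 and 0.06, a difference of 1.92 (adjusted p = 3.25e-08) without overlap. Among 15 genes of vacuolar proteolysis and autophagy 12 were called higher and 0 lower (median 0.43). With a common distribution of the ratios 8 were called higher. The largest differences were those of ATG8, the ubiquitin-like protein of autophagosome membranes (1.22), and the autophagy kinase ATG1 (1.09). The vacuolar proteases APE1 (0.95), PEP4 (0.87) and PRB1 (0.65) followed.

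All 16 genes of the DNA damage list were called higher in the yap1 deletion strain, where 16.3% of all ORFs were. Their median difference was 0.80, and with the ratios on a common distribution 11 of the 16 were called higher. RNR3, the damage-inducible large subunit of ribonucleotide reductase, which makes deoxynucleotides, stood at 3.91, 3.91, 3.08 and 3.08 on the yap1 arrays and at -0.04, 0.87, 0.66 and 0.81 on the mga2 arrays. The 7.57-fold difference (2.92, SE 0.164, adjusted p = 9.32e-08) separated the strains on every array. The small subunit genes RNR2 and RNR4 differed by 1.81 and 1.76, while the constitutive large subunit RNR1, added here after its values were seen, differed by 0.53. HUG1 stood at 3.50, 3.08, 2.87 and 2.87 on the yap1 arrays, above its mga2 values on every array (difference 1.68, SE 0.227, adjusted p = 0.000123). It rose in both strains, and with the ratios on a common distribution its difference was no longer called. DDI1, a ubiquitin-binding protease (1.09), and MAG1, a DNA glycosylase that shares its promoter (1.07), were also higher. TSA2 is a member of this list too and is described with the peroxiredoxins. Its difference changed sign with a common distribution of the ratios.

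Among Yap1 targets the ratio tended to be higher, not lower, in the strain without Yap1. Their share of lower calls was near that of all ORFs. Of 18 targets taken from textbook knowledge, 9 were called higher in the yap1 deletion strain and 3 lower, against 16.3% and 17.6% of all ORFs. Their median difference was 0.28. With the ratios on a common distribution the counts were 4 and 1, and without yap1 replicate 2 they were 8 and 1. When all 24 arrays were fitted together, 4 of 16 were called higher and 0 lower. GRE2, a methylglyoxal reductase, stood at 1.25, 1.25, 1.10 and 1.27 on the yap1 arrays and at -0.08, -0.35, -0.10 and 0.02 on the mga2 arrays (difference 1.34, adjusted p = 2.55e-07). PRX1, the mitochondrial peroxiredoxin, differed by 1.29 and ZWF1, the first enzyme of the pentose phosphate pathway, by 0.67, both without overlap. The genes given next differed by less. TSA2 stood at 1.90, 1.92, 1.68 and 1.85 on the yap1 arrays against 0.81 to 1.46 on the mga2 arrays, a difference of 0.62 (adjusted p = 0.00152). TRX2 stood at 1.22, 1.29, 0.83 and 0.92 on the yap1 arrays, and its difference of 0.47 (adjusted p = 0.0116) left the strains overlapping. Both differences turned to the other sign, -0.56 for TSA2 and -0.12 for TRX2, neither called, when the ratios of the 8 arrays were given a common distribution, so their direction rests on the scale of each strain. SOD1, copper-zinc superoxide dismutase, differed by 0.56 with overlapping arrays, a call that was lost with a common distribution of the ratios. GSH1, the first enzyme of glutathione synthesis, differed by 0.37 (adjusted p = 0.00694), was called in neither strain's own response and was not called on the Cy5 arrays alone. The peroxiredoxin TSA1 (0.29, adjusted p = 0.0576) and the peroxidase GPX2 (0.36, adjusted p = 0.112) were not called.

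TRR1, cytosolic thioredoxin reductase, went the other way. It stood at -0.55, -0.43, -0.19 and -0.37 on the yap1 arrays and at 0.13, -0.29, 0.15 and -0.04 on the mga2 arrays (difference -0.37, adjusted p = 0.0211). The strains overlapped, and the call was lost without yap1 replicate 1, 2 or 4, without mga2 replicate 1 or 3, and with a common distribution of the ratios. CCP1, mitochondrial cytochrome c peroxidase, was lower as well (-0.33). In the thioredoxin and peroxiredoxin list 6 of 9 genes were called higher and 1, TRR1, lower, and with a common distribution of the ratios 2 and 0. In the glutathione and glutaredoxin list 8 of 16 were called higher and 2 lower, and 5 and 1 with a common distribution. Of these 2, 1 was called without mga2 replicate 4 or yap1 replicate 2. The leading glutathione genes were GTT1, a glutathione transferase (0.99), ECM38, which breaks down glutathione in the vacuole (0.94), GRX1, a glutaredoxin (0.92), and the peroxidases GPX1 (0.69) and HYR1 (0.56). OPT1, a plasma membrane transporter of glutathione and oligopeptides, was lower (-0.43). The calls of CCP1, OPT1 and HYR1 were lost with a common distribution of the ratios. SOD2, mitochondrial superoxide dismutase, differed by 0.16 (adjusted p = 0.173).

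A ratio does not show the level from which a transcript started, and the channels separated the strains differently from the ratios. Each channel was compared after quantile normalization of the 16 intensity columns together, since the deposited intensities were higher on the yap1 arrays by a median of 0.26 in untreated and 0.25 in treated RNA on the log2 scale. The equal quantiles within a strain leave each strain on a scale of its own, so a difference between strains in a channel cannot be told apart from a difference between the sets of arrays. In untreated RNA 675 ORFs were higher (12.2%) and 613 lower (11%) on the yap1 arrays, and in treated RNA 978 (17.6%) and 1017 (18.3%). Of the 18 Yap1 targets, 0 were higher and 10 lower in untreated RNA, and 0 were higher and 10 lower in treated RNA, with median differences of log2 intensity of -0.52 and -0.48 (-0.25 and -0.28 as deposited).

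GRE2 had untreated intensities of 352, 407, 421 and 394 on the yap1 arrays and of 2580, 1650, 2370 and 2260 on the mga2 arrays. The difference of log2 intensity was -2.85 (adjusted p = 2.2e-06) in untreated and -1.34 (adjusted p = 0.0004) in treated RNA. The gene thus remained below its mga2 level after the treatment although its ratio was the higher one. GPX2, at 434, 423, 399 and 432 against 1770, 1770, 1490 and 1780, differed by -2.34 (adjusted p = 4.68e-07) in untreated and by -1.97 in treated RNA. Its ratio on the yap1 arrays stayed between 0.05 and 0.24. TSA1 differed by -1.40, TSA2 by -1.58, TRX2 by -1.18, SOD1 by -1.08 and GSH1 by -0.88 in untreated RNA, and all 5 were also lower in treated RNA (-0.49 to -1.13). PRX1 differed by -1.41 in untreated RNA and by -0.12 in treated RNA (adjusted p = 0.713). TRR1, at -0.28 in untreated RNA, did not pass the test there (adjusted p = 0.058). As deposited, without the joint normalization, GRE2 and GPX2 differed by -2.48 and -2.01 in untreated RNA. The general stress genes also started lower on the yap1 arrays, with 15 of 29 called lower and 2 higher in untreated RNA (median -0.55), but 13 were higher and 2 lower in treated RNA. HSP12 had untreated intensities of 3350, 2490, 4000 and 3380 against 15300, 5540, 19300 and 18400, where mga2 replicate 2 stood apart from the other mga2 arrays, and in treated RNA its difference of 0.72 did not pass the test (adjusted p = 0.135). The proteasome, in contrast, had 0 members higher and 3 lower in untreated RNA and 30 higher in treated RNA.

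**Figure D3:**
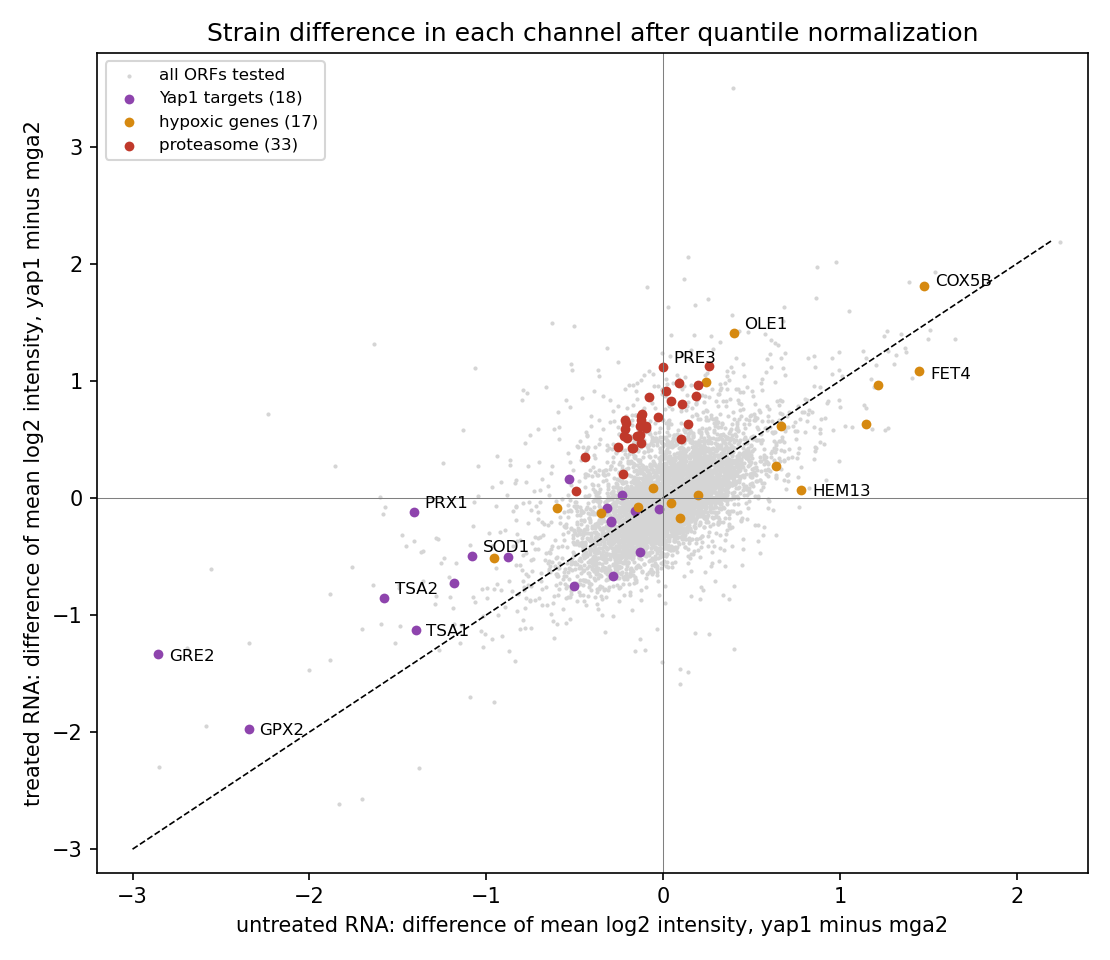
Difference of mean log2 intensity, yap1 arrays minus mga2 arrays, in untreated RNA (horizontal axis) and treated RNA (vertical axis) for each ORF after quantile normalization. Points above the dashed line have the higher ratio in the yap1 deletion strain. Yap1 targets such as GRE2 and GPX2 lie at the lower left, proteasome genes lie above the line near 0 on the horizontal axis, and hypoxic genes such as COX5B and FET4 lie to the right.

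The targets of Mga2 and the hypoxic genes held calls in both directions in the ratio, and more higher than lower calls on the yap1 arrays in untreated RNA. Of the 27 Mga2 targets listed by the study from a literature database, 3 were called higher and 9 lower in the yap1 deletion strain. Their median was -0.12, and over all ORFs 16.3% were higher and 17.6% lower. In the mga2 deletion strain 0 of the 27 were called. The 3 higher calls were 1 without mga2 replicate 1 or 3 or without yap1 replicate 1, and with a common distribution the counts were 1 and 4. OLE1, the desaturase, stood at 0.58, 1.24, 1.33 and 1.66 on the yap1 arrays and at 0.32, 0.56, -0.17 and 0.03 on the mga2 arrays. The difference was 1.02 (SE 0.132, adjusted p = 8.80e-05), with the lowest yap1 array just above the highest mga2 array. OLE1 was also higher on the yap1 arrays in untreated RNA (0.40, adjusted p = 0.0142), at 10300, 9620, 9900 and 9810 against 5410, 7660, 7230 and 6300. IZH1, a membrane protein of zinc and lipid homeostasis, had a ratio difference of 0.24 (adjusted p = 0.0515), and its values followed the dye in both strains, from -0.30 to 1.01 and from -0.57 to 0.71. In untreated RNA it was higher on the yap1 arrays by 0.96 (adjusted p = 0.000594), as was the related IZH4 by 1.05. Of the 27 targets, 9 were higher and 2 lower in untreated RNA, and 7 were higher and 7 lower in treated RNA. Genes of fatty acid synthesis other than OLE1 tended to be lower in the ratio, with 2 of 18 called higher and 6 lower (1 and 4 with a common distribution). FAA3, an acyl-CoA synthetase, differed by -0.71, and the elongases ELO2 and ELO3 by -0.56 and -0.48, the elongases with overlapping arrays. The call of ELO2 was lost on the Cy5 arrays alone and that of ELO3 with a common distribution. The fatty acid synthase genes FAS1 (-0.40, adjusted p = 0.00471) and FAS2 (-0.42, adjusted p = 0.00216) had all yap1 values below 0 and all mga2 values above. Some of these values lay close to 0. FAS1 went from an untreated intensity of 16800 to a treated one of 16700 on yap1 replicate 3. On mga2 replicate 4 it went from 15900 to 16000. FAS2 went from 6080 to 6140 on mga2 replicate 1. The call of FAS1 was lost on the Cy5 arrays alone and without the dye term. It was also lost with all 24 arrays and with the 16 arrays given 0.1 mM only. FAA4, another acyl-CoA synthetase, differed by 0.07 (adjusted p = 0.525).

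The hypoxic list holds genes that Rox1 represses or that yeast makes without oxygen. Of its 17 genes 6 were called higher and 4 lower (median -0.03), against 16.3% and 17.6% of all ORFs. The lower calls were 2 without yap1 replicate 3 or 4, and with a common distribution the counts were 3 and 1. HEM13, the oxygen-dependent coproporphyrinogen oxidase of haem synthesis, stood at -0.19, -0.56, -0.55 and -0.53 on the yap1 arrays and at 0.02, 0.70, 0.04 and 0.30 on the mga2 arrays. Its difference was -0.72 (SE 0.142, adjusted p = 0.00199), without overlap and with opposite signs. CYC7, the hypoxic isoform of cytochrome c, was higher by 0.64, and its call was lost with a common distribution of the ratios. In untreated RNA 8 of the 17 were higher and 2 lower on the yap1 arrays, and in treated RNA 7 and 1. HEM13 differed there by 0.78 (adjusted p = 0.000958), at 4400, 4170, 4830 and 4460 against 2170, 3080, 1980 and 2070, and by 0.07 in treated RNA (adjusted p = 0.836). COX5B, the hypoxic isoform of a cytochrome c oxidase subunit, and FET4, a low-affinity iron transporter, were chosen after their values were seen and differed by 1.48 and 1.45 in untreated RNA. COX5B had untreated intensities of 5010, 4830, 5300 and 6170 on the yap1 arrays and of 2060, 1390, 1680 and 1630 on the mga2 arrays. ROX1, the hypoxic repressor itself, differed by -0.96 in untreated RNA of the yap1 arrays. The ergosterol list had 3 of 28 genes called higher and 4 lower, smaller shares than the 16.3% and 17.6% of all ORFs. None was called higher without mga2 replicate 1 or yap1 replicate 4, 1 without yap1 replicate 2, and with a common distribution the counts were 0 and 1. ERG11, lanosterol demethylase, stood at -0.63, -0.57, -0.18 and -0.28 on the yap1 arrays and at 0.25, 0.41, -0.12 and -0.03 on the mga2 arrays (difference -0.54, adjusted p = 0.000144). Its strains did not overlap, and its call was lost when all 24 arrays were fitted together. ERG25, a sterol methyl oxidase, rose in both strains, by 0.40 and 0.28, and the difference of 0.11 was not called (adjusted p = 0.286).

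The ratios of iron uptake genes tended to be higher in the yap1 deletion strain. Of 25 genes of the Aft1 and Aft2 regulon 12 were called higher and 1 lower (median 0.24), against 16.3% and 17.6% of all ORFs. With the ratios on a common distribution 5 were called higher and 0 lower, and without yap1 replicate 1 or 2 the lower calls were 2. When all 24 arrays were fitted together, 2 of 18 were called higher. In untreated RNA 2 of the 25 were higher and 10 lower on the yap1 arrays, and in treated RNA 4 and 3. HMX1, haem oxygenase, stood at 2.41, 2.21, 1.74 and 2.21 on the yap1 arrays and at 0.16, -0.11, 0.25 and 0.21 on the mga2 arrays (difference 2.01, SE 0.108, adjusted p = 7.78e-08). FIT2, a cell wall protein that retains iron siderophores, stood at 2.28, 1.71, 1.16 and 1.77 against -0.05, -0.25, 0.41 and 0.31 (difference 1.62). ARN2 (1.06) and ENB1 (0.77), siderophore transporters, followed, the latter with a call that was lost when all 24 arrays were fitted together. None of these 4 genes overlapped between the strains. FET3, the high-affinity iron oxidase, differed by -0.20 (adjusted p = 0.254). FRE1, a ferric reductase, was the 1 gene called lower (-0.77, adjusted p = 0.013). On the mga2 arrays it stood at 1.72 and 0.97 with treated RNA in Cy3 and at -0.25 and -0.07 with treated RNA in Cy5, and its call was lost on the Cy5 arrays alone.

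Of 14 genes of lysine and arginine synthesis 10 were called higher in the yap1 deletion strain and 0 lower (median 0.57). Over all ORFs 16.3% were higher and 17.6% lower. ARG3, ornithine carbamoyltransferase, stood at 1.06, 1.27, 1.35 and 1.39 against -0.06, 0.42, -0.09 and 0.05 (difference 1.18, adjusted p = 3.11e-06). CPA1, which encodes a carbamoyl phosphate synthetase subunit, differed by 0.92, saccharopine dehydrogenase LYS1 by 1.11, and the last steps of arginine synthesis, ARG1 and ARG4, by 0.83 and 1.03. Enzymes that supply NADPH were split, 4 of 12 higher and 5 lower, or 3 and 2 with a common distribution. SOL4, a phosphogluconolactonase, was higher by 1.40 and ZWF1 by 0.67. GND1, the major phosphogluconate dehydrogenase, stood at -0.21, -0.36, -0.43 and -0.57 on the yap1 arrays and at 0.21, 0.16, 0.16 and 0.21 on the mga2 arrays (difference -0.58, adjusted p = 0.000167). RKI1, ribose-5-phosphate isomerase, differed by -0.63 and ALD6 by -0.49, and the call of ALD6 was lost with a common distribution of the ratios. Among 15 oxidoreductases linked to Yap1, 8 were higher and 0 lower (5 and 0 with a common distribution), led after GRE2 by the aldose reductase GRE3 (0.97) and YNL134C, an alcohol dehydrogenase-like protein (0.93).

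Genes of the G1 phase and of cell separation were lower in the yap1 deletion strain. Of 17 cyclin and daughter separation genes 15 were called lower than in the mga2 deletion strain and 0 higher, with a median difference of -0.63 where 17.6% of all ORFs were lower. In the mga2 deletion strain 0 of the 17 were called in either direction. EGT2, a cell wall enzyme of mother and daughter separation, stood at -1.39, -1.70, -2.11 and -2.11 on the yap1 arrays and at -0.54, -0.80, 0.43 and 0.22 on the mga2 arrays (difference -1.65, SE 0.112, adjusted p = 5.17e-07). Its strains did not overlap, although the mga2 values changed sign with the dye. PIR1, a covalently bound cell wall protein, stood at -1.38, -2.11, -2.01 and -2.01 against -0.20, -0.43, -0.12 and 0.03 (difference -1.70, adjusted p = 1.20e-06). HO, the mating-type switching endonuclease, which is inactive in laboratory strains and transcribed in late G1, stood at -2.01, -2.01, -1.60 and -1.65 against -0.07, -0.28, -0.21 and -0.28 (difference -1.61, adjusted p = 7.78e-08).

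The G1 cyclins CLN2 and CLN1 differed by -1.02 and -0.99. CLN2 stood at -1.35, -1.32, -0.54 and -0.89 on the yap1 arrays and at 0.25, 0.14, -0.20 and -0.21 on the mga2 arrays. The Pho85 cyclins PCL9 and PCL1 differed by -1.37 and -0.94. ASH1, the daughter-specific repressor of HO, differed by -1.32. The daughter-specific cell separation genes DSE4, DSE3 and SCW11 differed by -1.34, -1.24 and -1.01. NIS1, a bud neck protein (-1.09), BUD9, a bud site marker (-1.02), SVS1, a cell wall protein (-0.98), PST1, a cell wall protein anchored by glycolipid (-1.17), and URA1, dihydroorotate dehydrogenase (-1.15), completed the 15 largest negative differences without overlap. All 10 histone genes were called lower (median -0.55), and in the mga2 deletion strain 0 were called. With the ratios on a common distribution 6 of the 10 were called lower. HTA2, a histone H2A, stood at -0.62, -1.14, -0.67 and -0.81 against 0.26, 0.23, -0.12 and -0.14 (difference -0.86, adjusted p = 6.55e-05). HTA1 and HTB2 differed by -0.82 and -0.83, and the variant HTZ1 by -0.52. The pairs of H2A, H2B, H3 and H4 genes and the paralogous ribosomal protein and chaperone genes are nearly identical, and probes of such pairs may share signal. In untreated RNA 6 of the 17 cyclin and separation genes were higher and 0 lower on the yap1 arrays, and in treated RNA 1 was higher and 9 lower.

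Genes of protein synthesis were lower by small amounts. Of 50 ribosome biogenesis factors 32 were called lower and 0 higher (median -0.27), a count that was 19 without yap1 replicate 2 and 7 with the ratios on a common distribution. DBP2, an RNA helicase, differed by -0.80 and NOP1, fibrillarin, by -0.44, the latter not called when all 24 arrays were fitted together. Of 76 genes of the large ribosomal subunit 25 were lower and 2 higher (median -0.18). The lower calls were 14 without yap1 replicate 2, 7 with a common distribution and 4 of 74 when all 24 arrays were fitted together. The 2 higher calls were 0 without mga2 replicate 1 or 4 or yap1 replicate 2, 3 or 4, and 1 without mga2 replicate 2. Of 56 genes of the small subunit 8 were lower and 0 higher (median -0.15), a smaller share than the 17.6% of all ORFs. That count was 16 without mga2 replicate 1, 14 without yap1 replicate 1 and 5 without yap1 replicate 2 or 4. RPS7A (-0.64) and RPS27A (-0.54) kept their calls under all alternatives run for them. Of 17 purine and one-carbon genes 9 were lower and 0 higher (median -0.23), and 5 were lower without mga2 replicate 2 or yap1 replicate 4, 4 with a common distribution and 0 when all 24 arrays were fitted together. SER2, phosphoserine phosphatase, differed by -0.55 and ADE17, of the last steps of purine synthesis, by -0.47.

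**Figure D4:**
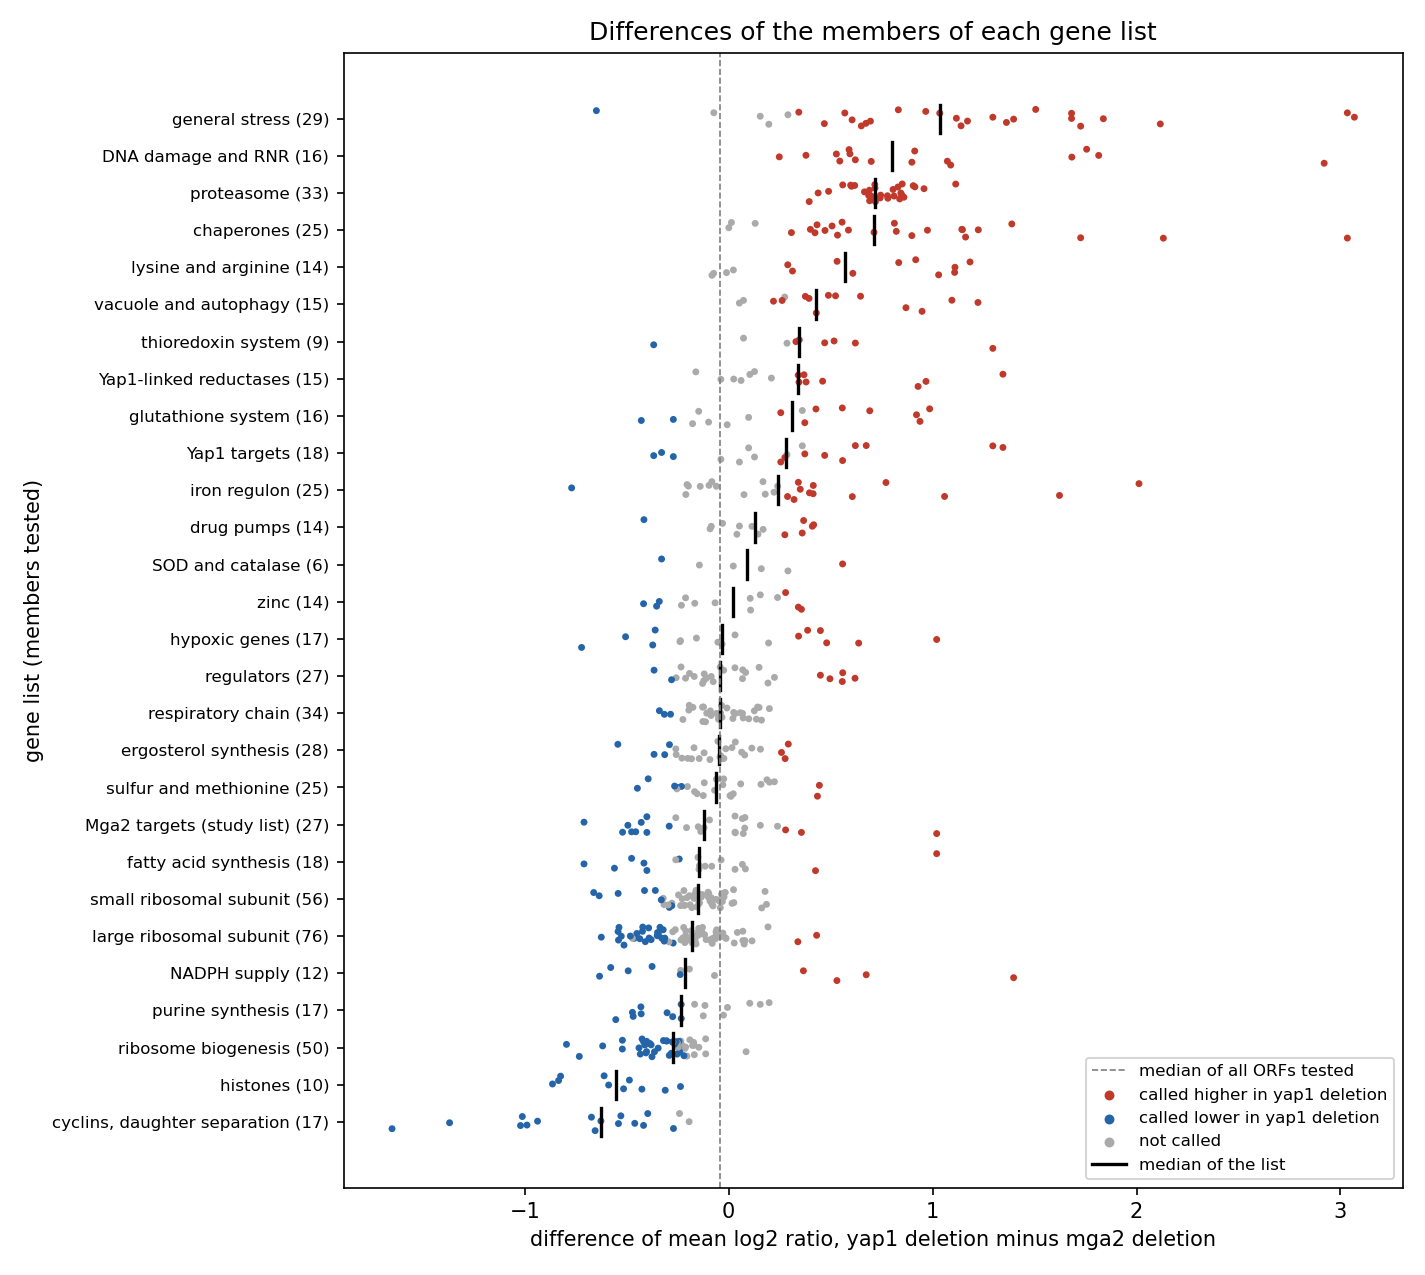
Difference of the mean log2 ratio, yap1 deletion minus mga2 deletion (horizontal axis), of each tested member of 28 gene lists (vertical axis, ordered by median). Points are members, black bars list medians and the dashed line the median of all ORFs, -0.04. All proteasome and DNA damage members lie to the right of 0 and all histones to the left.

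Of 27 regulators, mostly transcription factors, 5 were called higher and 2 lower, shares close to or below the 16.3% and 17.6% of all ORFs. The lower calls were 1 without mga2 replicate 1 or yap1 replicate 2 or 4, and with a common distribution the counts were 2 and 0. HSF1, the heat shock factor, stood at 0.55, 0.56, 0.74 and 0.75 on the yap1 arrays and at 0.08, -0.11, 0.13 and 0.04 on the mga2 arrays (difference 0.62, SE 0.085, adjusted p = 0.000139). MSN2 (-0.02, adjusted p = 0.834), MSN4 (-0.11, adjusted p = 0.339), SKN7, a partner of Yap1 in the peroxide response (-0.19, adjusted p = 0.121), and SPT23 (-0.17, adjusted p = 0.103) were not called. ACT1, the actin gene often used as a reference, differed by 0.31 (adjusted p = 0.0565). The remaining lists held few calls, and several of these were lost with a single array left out. Among 34 genes of the respiratory chain 0 were higher and 3 lower, with 0 lower without yap1 replicate 2 and 1 without mga2 replicate 1 or 2 or yap1 replicate 4. Among 25 genes of sulfur metabolism 2 were higher and 5 lower, with 2 lower without mga2 replicate 4 or yap1 replicate 2 or 4 and 3 without yap1 replicate 3. Among 14 genes of zinc homeostasis 3 were higher and 3 lower, with 1 higher without mga2 replicate 1 or 3 or yap1 replicate 1, and 5 lower without the last of these. Among 14 drug and lipid transporters 5 were higher and 1 lower, and the lower call was lost without mga2 replicate 1, 2 or 4 or yap1 replicate 3 or 4. Among 6 superoxide dismutase and catalase genes 1 was higher and 1 lower, with 2 higher without yap1 replicate 1. With the ratios on a common distribution the respiratory, zinc and dismutase lists held 0 calls, sulfur metabolism 2 higher and the transporters 3 higher.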

How the data were processed

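The authors applied background and quantile normalization to scanned spot signals and deposited 1 intensity per ORF and channel. The deposited table of 10807 unnamed spots holds log ratios, not centred, with a base (natural log) and a direction read from the numbers themselves, and was used for counts of calls alone. How spots were merged, and which filter left ORFs without values, is not given in the sources used here. No column was left unmapped. Of 6251 ORFs 5751 were named from a RefSeq table. Log2 treated to untreated ratios of the 5554 ORFs with values on the 8 arrays entered limma 3.58.1 (R 4.3.3; functions lmFit and eBayes) with a mean per strain and a dye term per ORF shared by the strains, which left 5 residual degrees of freedom. All tests were two-sided and adjusted over all ORFs, at 0.05. VERA, the test of the study's methods, was not run. SE is that of the fit over 4 arrays a strain, and the number of arrays limits the precision. On simulated data of this comparison (5554 ORFs) 6 of 50 changes of 0.25 and 40 of 50 of 0.5 (log2) were called. Of changes of 1 and of 2, 50 of 50 each were called, with 9 false calls among 155 in all. The simulation drew independent normal noise with a dye term shared by the strains, and few ORFs changed. It held neither the equal quantiles nor the separate scales of the strains, so its rates need not hold for the arrays. Genes named are the 15 largest called differences in each direction without overlap, up to 6 called members of each of 28 lists, and a set chosen by name, with additions marked. Lists came from textbook knowledge, symbol patterns and the study's Mga2 table. The members and lists were chosen with earlier results of these data known. Promoter sequences were not analysed here.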

Additional observations from a re-analysis of the deposited data

Results flagged for a closer look

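The response to 0.1 mM H2O2 differed between the strains for 1884 ORFs by the test of the difference itself. For 9 named genes that were called, the yap1 arrays all lay on one side of 0 and the mga2 arrays on the other. Most named genes were picked for the size of this same difference, and the count over all ORFs was not made. None of the 9 passed the test in the mga2 deletion strain. The differences were 1.11 for PRE3, 0.85 for RPT6, 0.61 for FRE2 (a ferric reductase) and 0.36 for SNQ2 (a multidrug transporter), and -1.17 for PST1, -0.72 for HEM13, -0.58 for GND1, -0.42 for FAS2 and -0.40 for FAS1. For FAS1 and FAS2 some array values lay close to 0, so their opposite signs are weakly marked. The call of FAS1 was lost on the Cy5 arrays alone and without the dye term. It was also lost with all 24 arrays and with the 16 arrays given 0.1 mM only.

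Of the 352 sets of 4 arrays checked for the 176 named genes, 12 had a single array that stood apart from the other 3. Its gap, as a share of the range, passed Dixon's critical value of 0.829. Sets of 4 like normal values pass it in about 1 in 20 cases, and the 12 are fewer than that. Each set holds both dye orientations and some hold tied values, so that rate need not apply. On the yap1 arrays the gap took 0.87 of the range for PIR1 (replicate 1 at -1.38, the nearest at -2.01), 0.924 for URA1 (replicate 2 at -1.26, the nearest at -0.79), 0.866 for GRE2 (replicate 3 lowest), 0.931 for HEM13 (replicate 1 at -0.19, the nearest at -0.53), 0.956 for DDI1 (replicate 1 highest), 0.834 for HTB2 (replicate 1 at -0.28, the nearest at -0.92) and 0.87 for ACT1 (replicate 2 highest). On the mga2 arrays it took 0.851 for SCW11 (replicate 2 lowest), 0.912 for CCP1 (replicate 1 lowest), 0.973 for RKI1 (replicate 2 highest), 0.984 for ALD6 (replicate 2 at -0.50, the nearest at -0.23) and 0.865 for ACB1, the acyl-CoA binding protein (replicate 4 lowest).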

How the results depend on the processing

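The 905 higher and 979 lower calls became 286 and 121 without the dye term (1264 calls in the yap1 response in place of 3020, and 1 in the mga2 response in place of 25). They became 533 and 445 on the Cy5 arrays alone, 354 and 256 with all 24 arrays (4373 ORFs; 1572 and 1 in the responses), 421 and 349 with the 16 arrays given 0.1 mM only (4376 ORFs; 1717 and 3), and 465 and 281 with the ratios on a common distribution. In the spot table (10807 spots, centred, direction inferred) they were 366 and 19, with 1259 and 5 in the responses. Centring (995 and 782), loess (982 and 771), the Cy3 arrays alone (776 and 768) and leaving out 1 array (737 to 904 and 684 to 963) stayed within 1.5 times. The mga2 response moved most, to 44 with a dye term per strain, 1580 on the Cy5 arrays and 1765 on the Cy3 arrays alone, where dye and treatment cannot be told apart, 13 with trend and robust estimation, and 8 to 22 with 1 array left out. Whether the replicate numbers pair the arrays could not be told. Same-numbered arrays deviated from their strain means with r of -0.78 to -0.69, a negative sign that their opposite dyes alone would give. With a dye term per strain removed, r was -0.015 or 0.019. Arrays of a strain with the same dye then mirror each other, so few independent values remain. With the numbers as a replicate block the counts were 966, 1075 and 3165, and the mga2 response had 38 calls.

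In the deposited untreated intensities 2531 ORFs were higher and 223 lower on the yap1 arrays, against 673 and 612 after quantile normalization of that channel, and 152 to 356 were lower with 1 array left out, 356 without mga2 replicate 2. In treated intensities 2433 were higher and 364 lower, 225 lower without the dye term, and 975 and 1017 after normalization of that channel.

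Of 161 named genes called, 78 kept call and direction under every alternative run, 50 lost the call or turned with a common distribution, 37 on the Cy5 arrays and 22 on the Cy3 arrays. The sign turned for TSA2 (-0.56), TRX2 (-0.12), ERG25 (-0.038) and MSN2 (0.00427) with a common distribution, for MSN2 also after centring (0.00384) and on the Cy5 arrays (0.041), and for the peroxisomal catalase CTA1 on the Cy5 arrays (-0.015). When all 24 arrays were fitted together, the higher calls were 15 of 22 general stress genes, 10 of 11 DNA damage genes, 5 of 11 vacuole and autophagy genes, 6 of 12 lysine and arginine genes and 2 of 18 iron genes, and the lower calls 6 of 10 histones and 4 of 50 ribosome biogenesis factors. With 1 array left out MSN2 ranged from -0.048 to 0.024 and CTA1 from -0.049 to 0.080. The causes of these changes were not tested.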

Other observations

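Among ORFs with a full set of values in 1 strain alone, SOR1, a sorbitol dehydrogenase, stood at 0.99, 1.37, 0.94 and 0.99 on the yap1 arrays. SOR1 was not compared with the mga2 deletion strain.

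Genes of sulfur metabolism held more higher calls in the channels than in the ratio. Over all ORFs 12.2% were higher and 11% lower in untreated RNA, and 17.6% and 18.3% in treated RNA. Of 25 genes 10 were higher and 1 lower on the yap1 arrays in untreated RNA, and 10 and 2 in treated RNA. In the ratio 2 were higher and 5 lower, near or below the 16.3% and 17.6% of all ORFs. With a common distribution of the ratios the counts were 2 and 0. Iron uptake genes held more lower calls in untreated RNA, with 2 of 25 higher and 10 lower, and 4 higher and 3 lower in treated RNA. Genes of lysine and arginine synthesis were higher in both channels, 8 of 14 in untreated and 9 in treated RNA. A difference between strains in a channel cannot be told apart from one between their sets of arrays.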
